A study of Mus musculus with 3 samples.

Results

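V-ATPase genes and lysosomal protease genes were examined in RNA bound to tagged ribosomes from mouse cerebral cortex. Members were the rows whose gene symbol begins with Atp6v or Atp6ap, the cathepsin rows (Cts followed by letters or digits) and the rows Lamp1 and Lamp2. The rule found 50 of 32531 gene rows: 25 V-ATPase genes, 23 cathepsins and 2 Lamp genes. The V-ATPase rows comprised 13 genes of the V1 domain, 9 of the V0 domain and 3 accessory genes.

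The study's design text calls the mice adult. All carried the Kcnip2-EGFP/Rpl10a transgene (animal line Kcnip2-TRAP NIDA115), were of strain C57BL/6J and were untreated. In lines of this design, ribosomal protein L10a is fused to EGFP and driven by regulatory sequences of the named gene, so that ribosomes of cells using them can be captured with antibodies to EGFP. There were 3 immunopurified (IP) libraries and no other group, and no input or control library was analysed here. All values are therefore levels within the immunoprecipitate, background RNA included, and no enrichment over whole cortex can be given. The labels do not say whether the libraries came from separate animals, so the spread between them may be technical.

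The V-ATPase is a rotary proton pump that acidifies lysosomes, endosomes and, in neurons, the synaptic vesicles that take up transmitter with the resulting proton gradient. Its cytosolic V1 domain hydrolyses ATP and turns a central stalk, and its membrane-embedded V0 domain carries the protons. Cathepsins are the main proteases of the lysosome and most of them need its acid pH, while LAMP1 and LAMP2 are abundant glycoproteins of the lysosomal membrane.

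Gene counts totalled 11602248 in replicate 1, 13635132 in replicate 2 and 14174384 in replicate 3. Levels are library-scaled counts (CPM, with TMM factors), divided by exon length in kilobases (CPM/kb) wherever genes are compared. Detection required 1 CPM or more in each of the 3 libraries. All 9 pan-neuronal marker genes were detected, as were 8 of 12 microglial, 9 of 9 astrocyte, 7 of 8 oligodendrocyte and 5 of 8 endothelial and mural markers. No marker was at 0 in all 3 libraries. The summed markers were 40360 to 46790 CPM for neurons, 53.7 to 104 CPM for microglia, 1555 to 2484 CPM for astrocytes, 489 to 669 CPM for oligodendrocytes and 19.8 to 32.6 CPM for endothelial and mural cells. Snap25 alone made up most of the neuronal sum and Slc1a2 most of the astrocyte sum, so these sums largely follow single genes. Pan-neuronal genes do not tell which neurons were captured. In such bulk libraries fewer cells of a type and less RNA per cell cannot be told apart.

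Of the 50 genes, 28 were detected, against 37.3% of all gene rows. V-ATPase genes were detected in 18 of 25 cases and both Lamp genes passed. Cathepsins were detected in 8 of 23 cases, or 34.8%, close to the share of all rows. A further 8 genes had reads without reaching the detection level in every library, and 14 had 0 counts in all 3 libraries. For these 14 genes a count of 0 allows up to 0.213 to 0.256 CPM per library, a limit that covers counting error only.

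Among the 22 V-ATPase genes and 12 cathepsins with at least 1 read, the median V-ATPase gene had 29.3, 28.2 and 27.1 CPM/kb in replicates 1, 2 and 3. The median cathepsin had 3.21, 2.19 and 2.14 CPM/kb, beside 2.25, 2.20 and 2.16 CPM/kb for the median of 16629 genes with a read and a length. The cathepsin median thus lay at that of all genes in replicates 2 and 3 and above it in replicate 1. On the log2 scale the V-ATPase median exceeded the cathepsin median by 3.22, 3.64 and 3.63 (mean 3.50 ± 0.24, SD, n = 3). Restricted to members past the count filter, the difference was 2.50.

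Atp6v1g2 stood far above every other V-ATPase gene. It encodes the G2 isoform of the peripheral stalk that holds the V1 domain still against the rotor, an isoform known for its expression in neurons. The gene lies on chromosome 17 (35233660 to 35238767, plus strand, GRCm38). It had 36013, 32203 and 35781 counts, which is 1223, 947 and 1010 CPM/kb in replicates 1, 2 and 3 (1060 ± 145, SD, n = 3). It was highest in replicate 1, and its mean ranked 10 among the 16629 genes. It supplied 46.2%, 38.7% and 40.5% of all V-ATPase counts, and 53.1% ± 3.41 (SD, n = 3) of the V-ATPase total per kilobase. Exons of Nfkbil1 on the other strand overlap 5.74% of its exon length, and Nfkbil1 itself had 22 counts in all.

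**Figure D1:**
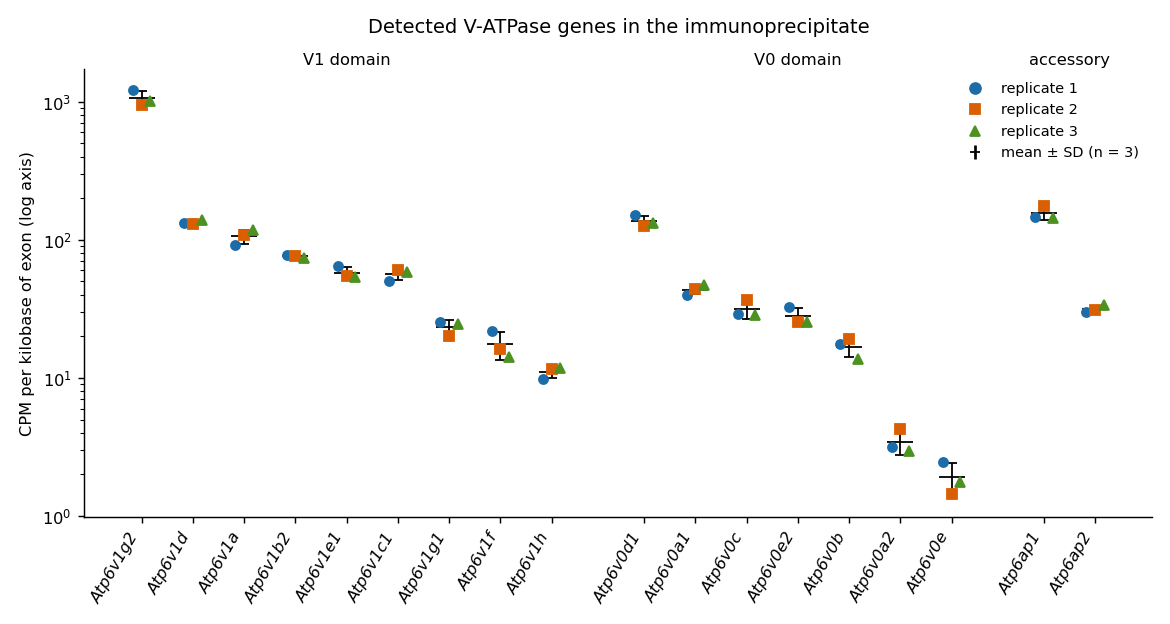
CPM per kilobase of exon, on a log axis, of the 18 detected V-ATPase genes in each of 3 libraries, with the mean and SD in black, grouped by domain. Atp6v1g2 lies between 947 and 1223 in every library, and all others lie below 180.

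The ubiquitous G isoform gene Atp6v1g1 was far lower, at 25.4, 20.2 and 24.7 CPM/kb. Atp6v1g2 exceeded it by 5.58, 5.54 and 5.35 on the log2 scale, a 45.0-fold mean ratio (log2 5.49 ± 0.12, SD, n = 3). The stretches of 50 bases in Atp6v1g1 transcripts recur in other annotated transcripts, Gm13453 and Gm12344, for 19.2% of positions, so reads could have been lost there as not unique. With the longest transcript as divisor the log2 ratio was 5.91, and by counts alone it was 6.64. The third isoform gene, Atp6v1g3, known from kidney, had 0 counts in all 3 libraries.

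The ATP-hydrolysing head of the V1 domain was carried by Atp6v1a and Atp6v1b2. Atp6v1a, the catalytic A subunit gene on chromosome 16, had 91.9, 108 and 117 CPM/kb (106 ± 12.9, SD, n = 3). Atp6v1b2, the B2 subunit gene on chromosome 8, had 78.0, 76.1 and 73.7 CPM/kb (75.9 ± 2.15). Their values did not overlap between libraries, with a log2 ratio of Atp6v1a over Atp6v1b2 of 0.24, 0.51 and 0.67. Divided by the longest transcript instead of all exons, that mean ratio was 0.08 and Atp6v1a was higher in 2 of 3 libraries, so the order of these genes was not settled. Atp6v1b1, the B1 isoform gene known from kidney and inner ear, had a single count, in replicate 2. Pooled over libraries the ratio per kilobase of Atp6v1b2 to Atp6v1b1 was 13080, with an exact 95% binomial interval of 2347 to 516500 for counting error.

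The rotor and the other stalk genes were spread over about an order of magnitude. Atp6v1d, whose product forms the central rotor shaft, had 132, 131 and 139 CPM/kb (134 ± 4.46, SD, n = 3). Atp6v1f, which encodes the other rotor protein, had 22.1, 16.3 and 14.1 CPM/kb (17.5 ± 4.09). All 3 libraries thus held Atp6v1d at several times the level of Atp6v1f. Of Atp6v1f transcripts, 11.2% of 50-base stretches recur in another annotated transcript. Atp6v1e1, a peripheral stalk gene, was at 58.0 ± 6.05 CPM/kb and Atp6v1c1, whose product ties the stalks to V0, at 56.4 ± 5.02. These neighbours did not differ beyond their spread (log2 0.04 ± 0.28), and Atp6v1e1 was the higher in 1 of 3 libraries. Per longest transcript their means lay further apart, at 81.4 and 64.1 CPM/kb, so this result depended on length. Atp6v1h, which encodes the regulatory H subunit, was the lowest detected V1 gene at 11.0 ± 1.10 CPM/kb. That place depended on length. Per longest transcript its mean was 22.2 CPM/kb, close to 23.1 for Atp6v1f and 23.4 for Atp6v1g1. Without a length divisor it was above both, at a mean of 107 CPM against 18.6 and 26.6.

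Second isoforms of these subunits were nearly absent. Atp6v1e2, known from testis, had 0 counts throughout, which puts Atp6v1e1 at least 324-fold higher per kilobase in every library, taking the floor of 3 counts per library. An annotated transcript on the other strand shares 24.9% of its 50-base stretches. Atp6v1c2, known from kidney and lung, had 0, 1 and 12 counts, and the pooled ratio of Atp6v1c1 to it per kilobase was 373 (exact 95% binomial interval 218 to 701). Of its 13 counts, 12 were in replicate 3.

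In the membrane domain the leading gene was Atp6v0d1, whose product couples the rotor to the proteolipid ring. It had 150, 126 and 132 CPM/kb (136 ± 12.5, SD, n = 3), while Atp6v0d2, known from osteoclasts and kidney, had 0 counts in all libraries. Atp6v0d1 was thus at least 1549-fold higher per kilobase, against the floor of 3 counts per library.

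The a subunit forms the proton path and sets where the pump is sent. Atp6v0a1, its isoform known for synaptic vesicles, had 40.1, 43.9 and 46.7 CPM/kb. Atp6v0a2, known from the Golgi apparatus, had 3.14, 4.27 and 2.98 CPM/kb. Every library had Atp6v0a1 above Atp6v0a2, with a mean log2 ratio of 3.66 ± 0.30, or 12.6-fold. Atp6v0a4, the kidney form, had 0, 3 and 0 counts. Tcirg1, which encodes the a3 subunit under another name and so was not selected by symbol, was at 0.559 ± 0.177 CPM/kb. Of these 4 genes together, Atp6v0a1 gave 91.5% ± 1.65 per kilobase.

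The proteolipid ring genes lay lower. Atp6v0c, the main ring subunit gene, had 28.8, 36.9 and 28.7 CPM/kb, and Atp6v0b, which encodes the c'' subunit, had 17.7, 19.1 and 13.8. Atp6v0c was above Atp6v0b in every library. Pseudogenes of Atp6v0c share 10.8% of its 50-base stretches, so reads could have been lost there as not unique, to an extent not known. Of the small e subunit genes, Atp6v0e2 was at 27.9 ± 4.05 CPM/kb and Atp6v0e at 1.90 ± 0.526, the lowest detected V-ATPase gene. Atp6v0e2 exceeded Atp6v0e by 3.69, 4.10 and 3.82 on the log2 scale, a mean of 14.6-fold (log2 3.87, or 3.23 by counts alone).

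When isoforms were added up, the G subunit led with 1248, 968 and 1035 CPM/kb. The next were d at 136 ± 12.5, D at 134 ± 4.46, A at 106 ± 12.9 and B at 75.9 ± 2.15 CPM/kb (SD, n = 3). Subunit H was last, at 11.0 ± 1.10, a place that rests on the length divisor. In each subunit with several genes, 1 gene gave 91.5% or more of the sum on average: Atp6v1g2 97.8%, Atp6v0e2 93.7%, Atp6v0a1 91.5% and Atp6v1c1 99.8%. Atp6v1b2 gave 99.99%, and Atp6v1e1 and Atp6v0d1 gave 100%.

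Both accessory subunit genes of the X chromosome were detected. Atp6ap2, which encodes the prorenin receptor, had 29.8, 30.9 and 33.6 CPM/kb (31.4 ± 1.94, SD, n = 3). Atp6ap1, which encodes the glycoprotein Ac45 needed for V0 assembly, had 147, 175 and 145 CPM/kb (156 ± 16.9), next in the V-ATPase order after Atp6v1g2. Atp6ap2 was below Atp6ap1 in 3 of 3 libraries, with a log2 ratio of -2.30 ± 0.20. Atp6ap1l, a gene named for its likeness to Atp6ap1, had 49, 8 and 12 counts and was not detected in every library. Its reads lay mostly in replicate 1.

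Ordered by CPM/kb, 11 of 17 neighbouring pairs of detected V-ATPase genes kept their order in all 3 libraries. This order divides by all exons and was not recomputed with another length. The neighbours that did not were Atp6ap1 and Atp6v0d1, Atp6v0d1 and Atp6v1d, Atp6v1e1 and Atp6v1c1, Atp6v0c and Atp6ap2, Atp6ap2 and Atp6v0e2, and Atp6v1f and Atp6v0b. In these pairs the mean log2 differences were -0.01 to 0.19, each smaller than its SD of 0.15 to 0.28.

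Of the cathepsins, Ctsd and Ctsb together made up 83.0% ± 1.18 (SD, n = 3) of the cathepsin total per kilobase. Ctsd, the aspartic protease of lysosomes, lies on chromosome 7 (142375911 to 142388038, minus strand, GRCm38) and had 88.9, 105 and 103 CPM/kb (99.1 ± 8.84). Ctsb, a cysteine protease gene on chromosome 14 (63122462 to 63145923, plus strand), had 73.6, 84.0 and 83.5 CPM/kb (80.4 ± 5.83). Both were lowest in replicate 1. The log2 ratio of Ctsd over Ctsb was 0.27, 0.33 and 0.30, so it hardly moved between libraries. Its direction depended on length: by counts alone Ctsb was the higher (log2 ratio -1.06), and with the longest transcript the ratio was 0.09. The annotated gene Gm49369, which had no row under that symbol, overlaps 34.4% of Ctsd exon length. Fdft1, with 5229 counts, overlaps 12.8% of that of Ctsb.

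**Figure D2:**
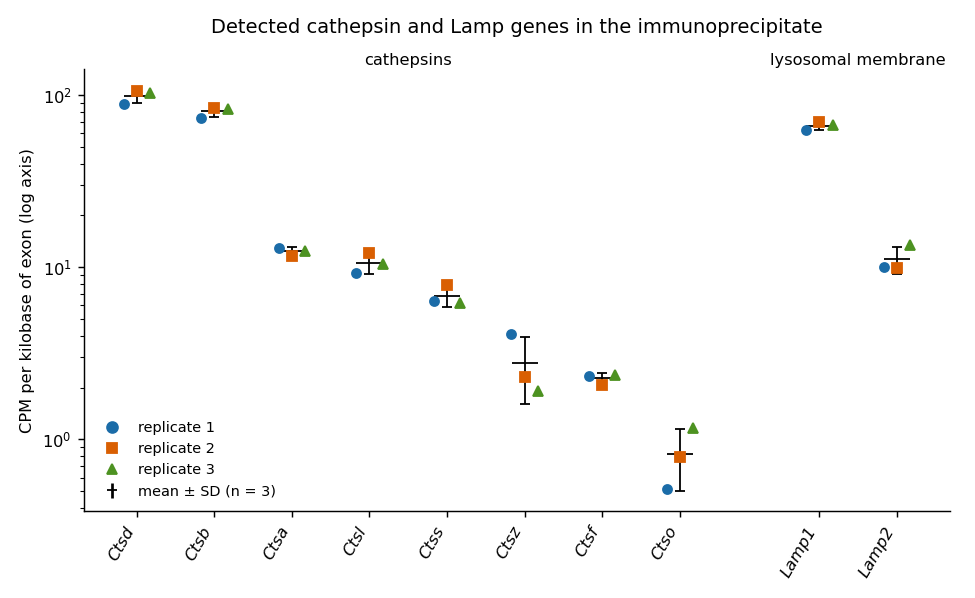
CPM per kilobase of exon, on a log axis, of the 8 detected cathepsins and both Lamp genes in each of 3 libraries, with the mean and SD in black. Ctsd and Ctsb lie between 73.6 and 105, and the other cathepsins lie below 14.

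The other detected cathepsins were at least several times lower. Ctsa, which encodes the serine carboxypeptidase that protects beta-galactosidase and neuraminidase, had 13, 11.6 and 12.5 CPM/kb. Ctsl, a cysteine protease gene, had 9.20, 12.1 and 10.5 CPM/kb. Ctsa and Ctsl did not differ beyond their spread (log2 0.23 ± 0.28), and Ctsa was higher in 2 of 3 libraries. Per longest transcript their means lay further apart, at 15.97 and 11.15 CPM/kb, so this result depended on length. Ctsb exceeded Ctsl by 2.93 ± 0.12 on the log2 scale, or 7.60-fold, in 3 of 3 libraries. Other annotated genes, with no row under their symbols, overlap 26.8% of Ctsl exon length. Neurl2 and Pltp, with 3 and 41 counts, overlap 17.4% of that of Ctsa.

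Ctss, a cysteine protease known for its expression in microglia, had 6.34, 7.83 and 6.16 CPM/kb from 101, 144 and 118 counts. Ctsd exceeded it by 3.85 ± 0.16 on the log2 scale, or 14.4-fold, in 3 of 3 libraries, and by 4.64 when counts were not divided by length. Beside it, the 12 microglial markers had a median of 1.99 CPM/kb, with means from 0.0983 for Trem2 to 6.28 for C1qb. Ctss and the summed microglial markers were both highest in replicate 2. The part of microglial RNA in the Ctss level was not tested. Ctsz, Ctsf and Ctso, further cysteine protease genes, were at 2.77 ± 1.15, 2.26 ± 0.155 and 0.823 ± 0.324 CPM/kb. Ctsz was highest in replicate 1 and Ctso in replicate 3, and Ctsz and Ctsf did not keep their order in all libraries. Per longest transcript Ctsf had the higher mean, at 5.44 CPM/kb against 2.77 for Ctsz.

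The remaining 15 cathepsins were not detected. Of these, 4 had some reads, led by Ctsh with 12, 34 and 13 counts and Ctsc with 8, 30 and 18. Ctse, an aspartic protease of immune cells, had 23, 19 and 4 counts, and the osteoclast protease gene Ctsk had 0, 4 and 7. The neighbours Ctsk and Ctss lie in a row on chromosome 3, and only Ctss was detected. The neutrophil gene Ctsg and the lymphocyte gene Ctsw had 0 counts.

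Chromosome 13 carries 10 of the 23 cathepsins, and Ctsl was the only one of these with a read. The other 9, Cts3, Cts6, Cts7, Cts8, Ctsj, Ctsm, Ctsq, Ctsr and Ctsll3, had 0 counts in every library. They form a cluster of 772 kb (60798250 to 61570127, GRCm38) of genes known in mouse mainly from placenta. Of the 13 cathepsins on other chromosomes, 7 were detected. Cts3 and Ctsm share 50-base stretches with each other, so reads could have been lost there as not unique. Cts8 shares 52.4% of its stretches with Gm49398 and others, and Gm49398 exons overlap 51.5% of its exon length. Such an overlap is the same stretch of genome and not a second place for a read. Gm49398 had no row under that symbol.

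Lamp1, on chromosome 8, had 62.3, 69.5 and 67.4 CPM/kb (66.4 ± 3.70, SD, n = 3). Lamp2, on chromosome X, had 10.02, 9.86 and 13.4 CPM/kb (11.1 ± 2.01). Lamp1 exceeded Lamp2 by 2.64, 2.82 and 2.33 on the log2 scale, a mean of 6.03-fold. The size of this ratio depended on length, since the annotated exons of Lamp2 cover 9552 bases and its longest transcript 3604. The mean log2 ratio was 1.45 per longest transcript and 0.76 by counts alone.

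**Figure D3:**
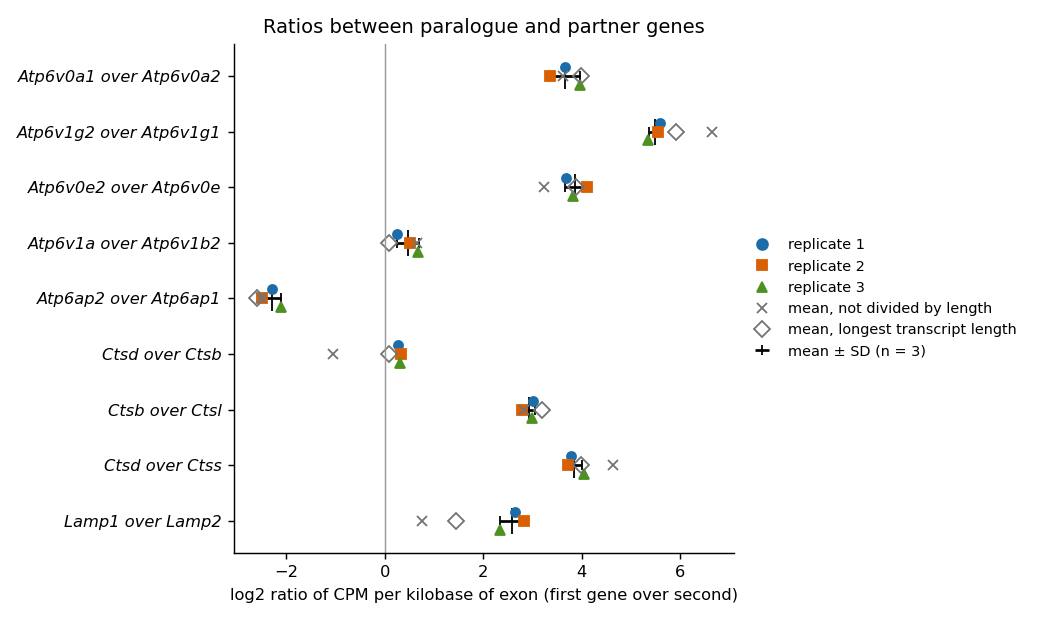
Log2 ratio of CPM per kilobase of exon between the genes of 9 pairs, in each of 3 libraries, with mean and SD in black and the mean under another length divisor in grey. All 3 libraries lie on the same side of 0 in every pair, and only Ctsd over Ctsb changes side without a length divisor, at -1.06.

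Of 13 pairs fixed for comparison, 9 had reads enough for a ratio in each library. The first gene was higher in 3 of 3 libraries in 8 of them and lower in 3 of 3 for Atp6ap2 over Atp6ap1. An exact two-sided sign-flip permutation test over 3 libraries gave p = 0.25 for each of the 9, which is the smallest p that 3 libraries allow. No ratio could therefore pass a threshold of 0.05.

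Promoters were examined because several lysosomal genes are known targets of the TFEB family of transcription factors, which bind the palindrome CACGTG, best within the longer core TCACGTGA. RefSeq sequences of the 250 bases before the start site (GRCm38.p6) were found for 18 V-ATPase genes, 19 cathepsins and both Lamp genes. There was no entry for Atp6v0a2, Atp6v0d2, Atp6v1b2, Atp6v1c1, Atp6v1g1, Atp6v1h, Atp6ap1l, Ctsb, Ctse, Ctsh and Ctsw. CACGTG occurred in 2 of 18 V-ATPase promoters, 5 of 19 cathepsin promoters and Lamp1, against 6.86% of the 27025 genes with an entry. The longer core, which contains CACGTG and reads the same on both strands, occurred upstream of Atp6v1a, Ctsa and Ctsd, against 0.907% of all genes. These matches describe letters in a window and do not show binding.

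The 150 bases before the start site are shown for 5 of the detected genes that hold the motif, Atp6v1a and Ctsd among them. Ctsf also holds CACGTG in this window, at 79 bases before the start, and is not shown. Ctsl holds it further upstream, at 236 bases. Atp6v1g2, Atp6ap1, Atp6v0d1 and Atp6v1d, all above Atp6v1a in mean level, had an entry without the motif. Capitals mark TCACGTGA or, where that is not present, CACGTG. The windows are chr16:44139260-44139409 for Atp6v1a, chr4:117887330-117887479 for Atp6v0b and chr7:142387828-142387977 for Ctsd, all on the minus strand, and chr2:164833623-164833772 for Ctsa and chr8:13159011-13159160 for Lamp1, both on the plus strand.
Atp6v1a: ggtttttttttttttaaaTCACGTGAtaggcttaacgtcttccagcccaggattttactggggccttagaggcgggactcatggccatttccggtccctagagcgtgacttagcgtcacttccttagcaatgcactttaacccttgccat
Atp6v0b: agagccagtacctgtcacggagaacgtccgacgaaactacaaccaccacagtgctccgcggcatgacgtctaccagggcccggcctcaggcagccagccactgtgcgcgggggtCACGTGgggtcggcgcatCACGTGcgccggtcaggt
Ctsd: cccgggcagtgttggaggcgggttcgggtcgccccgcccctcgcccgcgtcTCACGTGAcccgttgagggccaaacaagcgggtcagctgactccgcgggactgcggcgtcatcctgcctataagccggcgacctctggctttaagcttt
Ctsa: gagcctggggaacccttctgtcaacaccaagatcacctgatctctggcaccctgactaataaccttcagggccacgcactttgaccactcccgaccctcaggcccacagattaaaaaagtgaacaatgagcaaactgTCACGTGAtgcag
Lamp1: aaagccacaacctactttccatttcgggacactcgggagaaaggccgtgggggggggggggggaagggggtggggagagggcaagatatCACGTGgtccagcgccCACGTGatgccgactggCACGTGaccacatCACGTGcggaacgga
Lamp1 held 4 copies within 61 bases of its start site. Atp6v0b held 2, at 36 and 18 bases before the start, and Ctsa held 1, at 13 bases before it. In Ctsd the longer core began 99 bases before the start, with a shorter CACGTG further upstream, at 245 bases. In Atp6v1a it began 132 bases before the start. The genes with the motif spanned a wide range of levels, at 106 CPM/kb for Atp6v1a, 99.1 for Ctsd, 66.4 for Lamp1, 16.8 for Atp6v0b, 12.4 for Ctsa, 10.6 for Ctsl and 2.26 for Ctsf. Ctsll3, the other cathepsin with the motif, had 0 counts in every library.

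Between libraries the median spread of the detected members was below that of all detected genes, a comparison not matched for level. The coefficient of variation of CPM over the 3 libraries had a median of 11.4% over the 18 detected V-ATPase genes (2.84% to 27.6%) and 11.2% over the 8 detected cathepsins (5.91% to 41.7%), beside 14.8% over all 12130 detected genes. Atp6v1b2 was the steadiest, at 414, 404 and 391 CPM, while Ctsz and Ctso, both with few counts, reached 41.7% and 39.4%. In an edgeR quasi-likelihood fit to all genes, 29 members passed the count filter. None of them was called as varying more than genes of the same level (Benjamini-Hochberg adjusted p under 0.05), and 0.0879% of the 12509 genes tested were called. At an unadjusted p under 0.05 there were again 0 of 29 members, against 5.72% of all genes, and DESeq2's dispersion outliers held 0 members too. The unadjusted count changed with the libraries and the filter used. Without replicate 1 it was 3 of 30 members, against 682 of 12854 genes. Without replicate 2 it was 1 of 30, against 642 of 12801. With no count filter it was 1 of 36, against 1087 of 18703.

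The members with the largest ratio of dispersion to trend were Lamp2, Atp6v1g2 and Ctsh. Lamp2 had 95.7, 94.2 and 128 CPM (edgeR ratio 2.82, adjusted p = 0.915). Atp6v1g2 had 3070, 2378 and 2535 CPM (edgeR ratio 2.26, adjusted p = 0.975). Lamp2 was high in replicate 3, and Atp6v1g2 was high in replicate 1. Ctsh, with 1.02, 2.51 and 0.921 CPM, was high in replicate 2 (edgeR ratio 2.05, adjusted p = 0.98).

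Of the 18 detected V-ATPase genes, 8 were highest in replicate 1, 5 in replicate 2 and 5 in replicate 3, against 36.4%, 32.8% and 30.9% of all detected genes. Of the 8 detected cathepsins, 2 were highest in replicate 1, 4 in replicate 2 and 2 in replicate 3. The summed neuronal, astrocyte, microglial and endothelial and mural markers were lowest in replicate 1, and the oligodendrocyte markers were lowest in replicate 3. Their part in the members' deviations was not tested.

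**Figure D4:**
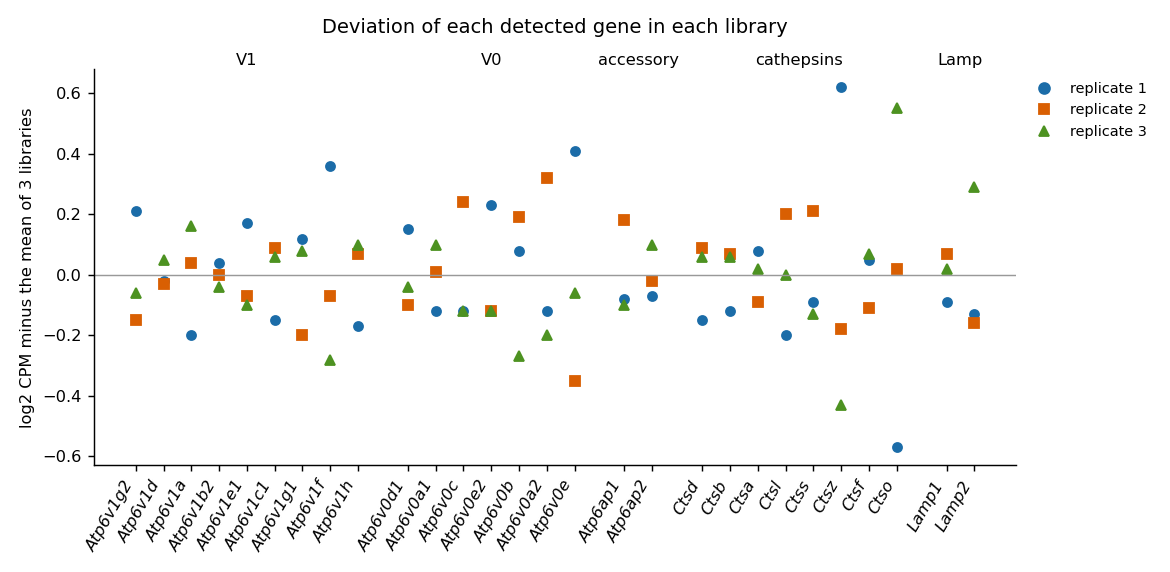
Log2 CPM of each of the 28 detected genes minus its mean over 3 libraries, by library. The V-ATPase genes lie between -0.35 and 0.41, both in Atp6v0e, and the widest spreads belong to Ctsz and Ctso, from -0.57 to 0.62.

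Other genes of lysosomal function were mostly detected, against 37.3% of all gene rows. None was called as varying between libraries. Only 0.0879% of the 12509 genes tested were called, too small a share for lists of this size to differ from. Of 16 V-ATPase assembly factors and partners, 15 were detected. The median here and in the lists that follow is over all list genes with a read, and was 6.98 CPM/kb. Oxr1, which encodes a TLDc-domain protein of a family that interacts with the V-ATPase, led at 71.4 ± 1.006 CPM/kb (SD, n = 3). Rogdi and Dmxl2, parts of the RAVE-like complex that joins V1 to V0, followed at 32.3 ± 1.39 and 30.9 ± 2.19. Tcirg1, given above, was the lowest detected, and Rnasek had 0 counts. Exon overlaps and shared stretches were examined for members only, so whether reads of Rnasek were lost in counting was not tested.

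Of 33 other lysosomal hydrolases and activator proteins, 31 were detected, and the median of the list was 5.62 CPM/kb. Psap, the saposin precursor gene, was at 211 ± 18.2 CPM/kb and Ids, the iduronate sulfatase gene, at 177 ± 13.3 (SD, n = 3). Both were thus above Ctsd in every library. Arsb, a sulfatase gene, was at 37.4 ± 6.71, and Dpp7 was the lowest detected at 0.658 ± 0.0956.

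Cystatins inhibit cysteine cathepsins, and 2 of 5 were detected. Cst3, which encodes cystatin C and is known as abundant in astrocytes and microglia, was at 71.2 ± 12.3 CPM/kb, and Cstb, a cytosolic inhibitor gene, at 35.1 ± 6.00 (SD, n = 3). Cst7 and Csta1 had 0 counts. Cst6 had 0, 4 and 9 counts. Cst3 was highest in replicate 2, as were the summed astrocyte, microglial, oligodendrocyte and endothelial and mural markers. The part of their RNA in its level was not tested.

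Of 17 lysosomal membrane proteins and transporters, 16 were detected, and the median of the list was 2.22 CPM/kb. Laptm4b and Laptm4a, related lysosomal membrane protein genes, led at 37.8 ± 6.99 and 32.6 ± 2.90, and Mfsd8 was the lowest detected at 0.708 ± 0.246 (SD, n = 3). All 7 genes of lysosomal enzyme sorting were detected. Among these the sorting receptor gene Sort1 was at 54.0 ± 7.59 CPM/kb, Gnptab, which makes the mannose 6-phosphate tag, at 20.3 ± 0.643, and the receptor gene M6pr at 13.01 ± 0.862. Nagpa was the lowest, at 2.07 ± 0.613.

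Of 16 genes of the TFEB family and lysosomal nutrient sensing, 14 were detected. The Rag GTPase gene Rraga was at 45.4 ± 4.26 CPM/kb, the Ragulator gene Lamtor5 at 36.2 ± 5.80 and Rragb at 13.99 ± 2.11, and Lamtor4 was the lowest detected at 1.90 ± 1.13 (SD, n = 3). Tfeb itself had 2, 8 and 6 counts and was not detected. Its relatives Tfe3 and Mitf were at 3.32 ± 0.131 and 3.26 ± 0.838 CPM/kb, and Tfec had 0, 2 and 0 counts.

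**Figure D5:**
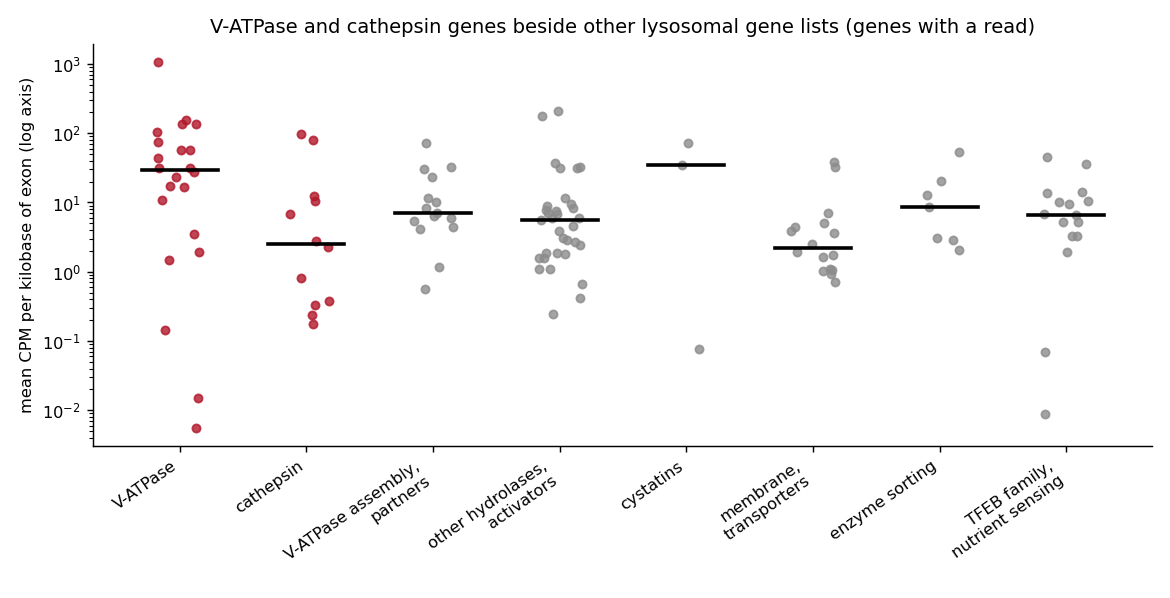
Mean CPM per kilobase of exon over 3 libraries, on a log axis, of each gene with a read in the V-ATPase and cathepsin families (red) and in 6 other lysosomal gene lists (grey), with list medians as black bars. The V-ATPase median is 29.6 and the cathepsin median 2.51. The cystatin median is higher than both, at 35.05, but it is the value of Cstb alone in a list of few genes. Of 5 cystatins, 2 had no read and only 2 were detected. The other list medians are 8.465 for enzyme sorting, 6.98 for assembly factors and partners and 6.699 for TFEB family and nutrient sensing. They are 5.62 for the other hydrolases and 2.22 for membrane proteins and transporters.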

How the data were processed

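The authors deposited raw read counts by gene symbol for each library. The submitters' processing notes name STAR 2.0.0e, HTSeq and mm10. Counting mode, strand setting and annotation release were not given in the sources used here. Reads of overlapping genes on opposite strands therefore cannot be told apart. Rows that name no gene were left out: no feature took 16.4%, 14.2% and 12.8% of tallied reads in replicates 1, 2 and 3, ambiguous reads 2.37%, 2.51% and 2.65%, and reads without a unique place 19.4%, 15.8% and 13.8%.

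Counts were scaled by TMM (edgeR 4.0.16, R 4.3.3), and log2 CPM used a prior count of 2. CPM/kb divides by the union of exons in GENCODE M21 (GRCm38, the assembly of mm10). Of 32531 rows, 23155 matched by symbol and 735 by an older symbol, and all 50 members had a length; levels per kilobase of all genes cover matched rows only. Expressed transcripts may be shorter than such a union.

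Variation between libraries was tested with edgeR's quasi-likelihood fit (robust, intercept only, filterByExpr with minimum count 10) on 12509 genes, with Benjamini-Hochberg adjustment over all of them at 0.05. The common biological coefficient of variation was 19.7%. Library pairs differed by more than counting noise (chi-square per degree of freedom 12.3 to 28.5). Members, lists and pairs were chosen with earlier results of these data known. Named genes were all detected members, the 3 highest and the lowest detected of each pathway list, and the 3 members of largest dispersion ratio. One gene that this rule names is not reported here. Undetected members and list genes, the TFEB relatives and single markers were named besides, chosen after their values were seen. DESeq2 1.42.0 gave alternative size factors and dispersion outliers. Matches of 50 bases between transcripts and exon overlaps came from the same annotation. Intervals and floors cover counting error only.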

Additional observations from a re-analysis of the deposited data

How the results depend on the processing

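Detected counts of V-ATPase, cathepsin and Lamp genes stayed within 1.5 times the values given under DESeq2 size factors, a rule of more than 3 counts in every library, and leaving out each replicate, with cathepsins ranging from 8 to 11. The V-ATPase minus cathepsin median difference of 3.50 (log2) was 3.24 per longest transcript and 2.50 for members past the count filter, and it lay between 3.42 and 3.63 when 1 replicate was left out. Of 54 recomputed pair ratios, 41 moved by less than 1 SD, 12 by more in the same direction, and 1 changed sign: Ctsd over Ctsb without a length divisor, at -1.06. In that case the divisor itself is the cause, since the summed exons of Ctsb are longer than those of Ctsd. All ratios that moved by more or changed sign did so under another length divisor or none. Leaving out 1 of 3 replicates cannot shift a mean by 1 SD, so those settings could not count as moved. The number of genes called as varying between libraries, 11, was 66 with no count filter, 5 without robust moderation and 28 by DESeq2's dispersion outliers, and ranged from 4 to 9 when 1 replicate was left out (4 without replicate 2). The causes were not tested. No member was called by edgeR at an adjusted p under 0.05, or was a DESeq2 dispersion outlier, under any of these settings. No paired analysis was possible because there is only 1 group. Depth limits the 14 genes at 0: below about 0.2 CPM neither presence nor absence can be stated. It also limits the 8 with few reads, which missed 1 CPM in at least 1 library. Of these, Atp6ap1l, Ctsh, Ctsc and Ctse reached 1 CPM in some library. Atp6v0a4, Atp6v1b1, Atp6v1c2 and Ctsk stayed under it in all. Length limits every comparison between genes, and without an input library no level can be assigned to the tagged cells.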
